A study of Mus musculus with 6 samples.

Results

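Peroxisomes are small organelles that shorten very long and branched fatty acids, start the synthesis of ether lipids and oxidise several amino acids and other small molecules, often with hydrogen peroxide as a by-product. Their matrix enzymes are imported from the cytosol, and transporters of their membrane pass acyl-CoA esters and cofactors. The genes described here are the enzymes and membrane proteins of this organelle, chosen by name across its pathway branches and measured through the array probe sets that carry their symbol alone. Of 43 such genes 42 were measured, each by 1 probe set, out of 19938 genes in all. Paox, an oxidase of acetylated polyamines, had no such probe set and was not analysed here. Abcd4 and Mpv17 are in the list by name, although ABCD4 is better known for vitamin B12 export from lysosomes and MPV17 as a protein of the inner mitochondrial membrane.

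The samples were organ of Corti, which holds the hair cells and supporting cells of the cochlea, dissected at postnatal day 15 from Pjvk-/- mice (3 arrays, called knockout) and from Pjvk+/+ mice (3 arrays, called wild-type). All were of the mixed background C57BL/6J-129/Sv. Pjvk encodes pejvakin, a gasdermin family protein linked to deafness, and the study's title concerns sound exposure and the proliferation of peroxisomes. The labels describe no noise exposure of these 6 samples and do not say whether each came from a separate animal or a pool, so the p-values cover only the variation among these 6 samples, part of which may be technical. The deposited values are log2 signals per probe set, and a log2 fold change is the knockout mean minus the wild-type mean.

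Pjvk itself read 4.42, 4.36 and 4.21 in the knockout arrays, against 4.75, 5.06 and 4.96 in the wild-type arrays, a difference of -0.59 with a standard error (SE) of 0.09 (limma, adjusted p = 0.105). Every knockout reading was under every wild-type reading, in a dim signal whose probes may lie outside the altered part of the gene. The knockout and wild-type arrays also differed in several marker lists. All 13 skeletal muscle markers were higher in the knockout, with list means of 6.25 to 6.40 in knockout arrays and 6.07 to 6.19 in wild-type arrays, and 11 of 12 blood vessel markers were lower, with list means of 8.09 to 8.25 in knockout arrays and 8.30 to 8.32 in wild-type arrays. The 3 measured Y-linked genes had means of 7.39 to 7.58 in knockout arrays and 7.65 to 8.05 in wild-type arrays. Of the 9 melanocyte markers 5 were lower and 4 higher. Their list means were 6.46 to 6.60 in knockout arrays and 6.69 to 6.82 in wild-type arrays. Dct, an enzyme of melanin synthesis, differed most (log2 fold change -1.86, limma adjusted p = 0.0115). The other melanocyte markers lay between -0.31 for Tyr and 0.19 for Ednrb, so the gap in list means rests largely on Dct. All 15 hair cell markers were measured, 8 lower and 7 higher with a median of -0.03, although their list means were higher at 7.77 to 7.83 in knockout arrays and 7.71 to 7.75 in wild-type arrays, with Calb1, a calcium-binding protein, at 0.59. The 12 measured of 13 supporting cell markers divided 6 to 6, with list means of 9.15 to 9.26 in knockout arrays and 9.15 to 9.17 in wild-type arrays and Tectb, a protein of the tectorial membrane, at 0.45 (limma adjusted p = 0.0923). Of the 9 measured bone and fibroblast markers 7 were higher and 2 lower. Their list means were 10.23, 9.88 and 9.88 in knockout arrays and 9.84 to 9.96 in wild-type arrays, so that knockout replicate 1 stood highest. None of these lists had a marker with a log2 fold change of exactly 0. Their part in the results below was not tested.

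No peroxisomal gene passed the test. At an adjusted p under 0.05, 0 of 42 were called lower and 0 of 42 higher in the knockout, against 0.0351% of all genes called lower and 0% called higher (limma, Benjamini-Hochberg over 19938 genes). The adjusted p-values ran from 0.370 for Far2 to 0.970 for Crot. At an unadjusted p under 0.05, Phyh was lower and Far2 higher, 1 of 42 (2.38%) in each direction, beside 6.66% of all genes lower and 5.74% higher. The knockout lay wholly below the wild-type in 4 members, Acot8, Gnpat, Mpv17l and Nudt12, or 9.52%, near the 11.3% of all genes, and wholly above it in 0, against 6.59% of all genes. These shares of members are thus close to or under the shares of all genes. With quantile normalization 1 member lay wholly below and 4 wholly above, a split that was not counted over all genes. When limma used robust priors and an intensity trend it again called 0 members, while it called 100 genes lower and 12 higher over the whole table.

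The differences in array signal were small and their intervals bound them. Log2 fold changes of the members ran from -0.17 for Phyh to 0.22 for Far2, and 38 of 42 members differed by less than 1.1-fold. Far2 was the 1 member (2.38%) that differed by 0.2 or more on the log2 scale, as 7.93% of all genes did. The SE of a member's log2 fold change lay between 0.05 and 0.11. The 95% intervals, not adjusted for the number of genes, stayed within 0.5 on either side of 0 for all 42 members and within 0.3 for 32. The widest bound was 0.42 for Far2, which is 1.34-fold, so that for no member does its interval reach a 1.5-fold change.

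**Figure D1:**
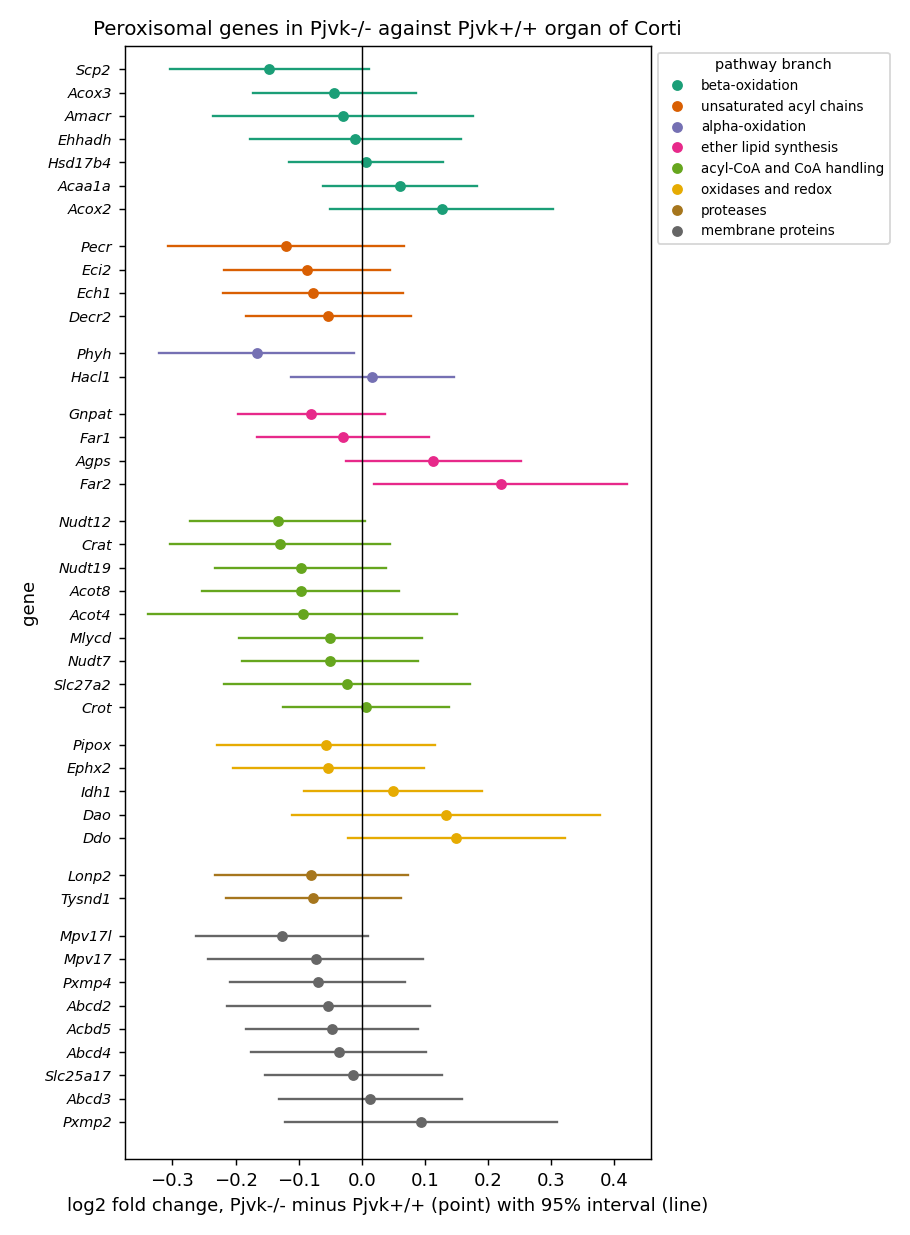
Log2 fold change of each of the 42 genes (point, Pjvk-/- minus Pjvk+/+) with its unadjusted 95% interval from limma (line), grouped and coloured by pathway branch, with genes on the vertical axis. All points lie between -0.17 and 0.22, and the intervals of Phyh and Far2 are the 2 that leave out 0.

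More members lay below 0 than above it, which many other genes did too. Of the 42 members 30 (71.4%) had a log2 fold change below 0 and 12 above, with a median of -0.05, against 53.8% of all genes below 0 and 44.9% above, with a median of -0.01. Direction followed signal over the whole table. Among genes above the median signal 72.1% were lower in the knockout, and among those below it 35.5% were. On these sides of the median 22 of 30 brighter members (73.3%) and 8 of 12 dimmer members (66.7%) were lower. The median of the brighter members was -0.05, beside -0.04 for all brighter genes, and that of the dimmer members was -0.03, beside 0.04 for all dimmer genes. Set against the median of all genes in their own decile of signal, 26 members lay below and 16 above, by a median of -0.02.

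**Figure D2:**
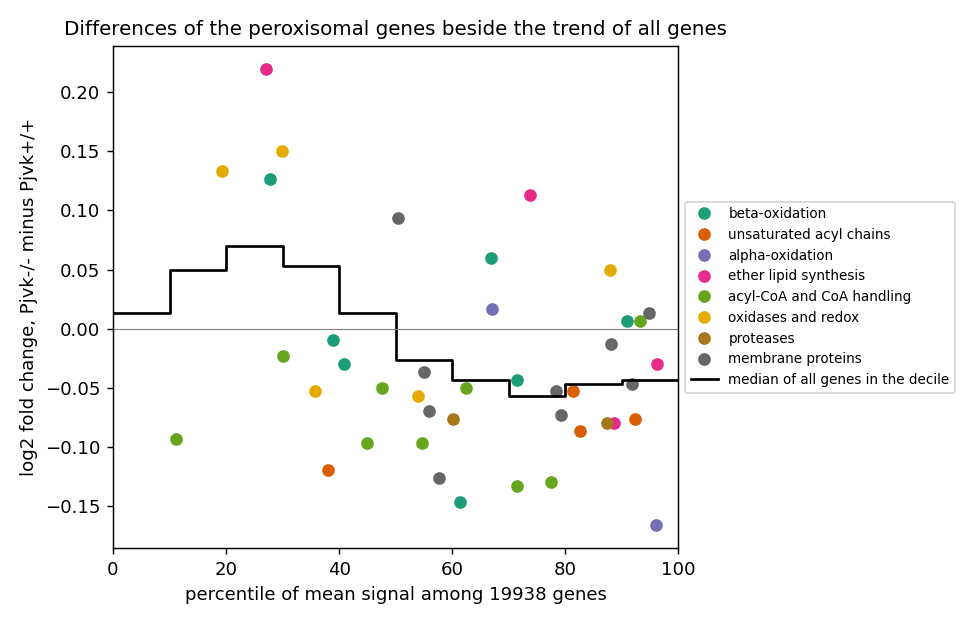
Log2 fold change of each of the 42 genes (points, coloured by pathway branch) against the percentile of its mean signal, with the median of all genes in each decile of signal as a black line. The line passes from 0.07 in decile 3 to -0.06 in decile 8, and the members scatter on either side of it, with Far2 highest at 0.22.

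Core beta-oxidation, which removes carbon units from very long and branched acyl-CoA, showed no common direction. Of its 7 genes 4 were below 0 and 3 above, with a median of -0.01. Scp2, which encodes the thiolase for branched chains together with a sterol carrier domain, read 7.49, 7.57 and 7.62 in knockout arrays and 7.68, 7.62 and 7.82 in wild-type arrays. The groups met at 7.62, and wild-type replicate 3 was the highest of the 6. The difference was -0.15 (SE 0.07, adjusted p = 0.419), and it was -0.09 without wild-type replicate 3 and -0.30 when the fit held the Y-linked level. That level does not overlap between the genotypes, so values from that fit, here and below, are largely confounded with genotype. The lowest adjusted p of a member in that fit was 0.910 (limma). Acox2, the oxidase for bile acid intermediates and branched chains, lay on the other side at 0.13 (SE 0.08), and Acox3, another oxidase for branched chains, was at -0.04 (SE 0.06). Hsd17b4 and Ehhadh, the multifunctional enzymes that hydrate and dehydrogenate enoyl-CoA, differed by 0.01 (SE 0.05) and -0.01 (SE 0.07). Acaa1a, the thiolase for straight chains, was at 0.06 (SE 0.05) and Amacr, the racemase that turns branched acyl-CoA into the usable form, at -0.03 (SE 0.09).

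The helper enzymes for unsaturated acyl chains were all lower, by little. Over all genes 53.8% were lower, and 72.1% of those above the median signal. Eci2, an isomerase of double bonds, read 8.75, 8.65 and 8.68 in knockout arrays and 8.84, 8.75 and 8.75 in wild-type arrays, and the groups met at 8.75. Its difference was -0.09 (SE 0.06, adjusted p = 0.548), and -0.0024 when the fit held the Y-linked level. Ech1, a dienoyl-CoA isomerase, was at -0.08, Decr2, the peroxisomal dienoyl-CoA reductase, at -0.05, and Pecr, a trans-enoyl-CoA reductase, at -0.12, all with SEs of 0.06 to 0.08. With quantile normalization Eci2 was at -0.04, Ech1 at -0.03, Decr2 at -0.0011 and Pecr at -0.15. The mean of the 4 genes, as a deviation from their mean over the 6 arrays, was -0.06, 0.04 and -0.11 in knockout arrays and 0.06, 0.03 and 0.04 in wild-type arrays. Knockout replicate 2 thus lay among the wild-type arrays.

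Alpha-oxidation takes a carbon from fatty acids, such as phytanic acid, whose side chain blocks beta-oxidation. Phyh, the phytanoyl-CoA hydroxylase that is deficient in human Refsum disease, read 9.85, 10 and 9.85 in knockout arrays and 10.09, 9.98 and 10.13 in wild-type arrays. Knockout replicate 2 lay above wild-type replicate 2, and the other arrays were apart. Knockout arrays averaged 9.90 ± 0.09 and wild-type arrays 10.07 ± 0.08 (SD, n = 3 each), a difference of -0.17 (SE 0.07, limma adjusted p = 0.377). It is the lowest difference among the members. Hacl1, the lyase that acts after PHYH on the hydroxylated product, differed by 0.02 (SE 0.06).

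In ether lipid synthesis, the route to plasmalogens of membranes and myelin, the 4 genes went different ways. Gnpat, the acyltransferase of the first step, read 9.12, 9.09 and 9.12 in knockout arrays and 9.21, 9.19 and 9.17 in wild-type arrays. The groups did not overlap and each was narrow. The difference was -0.08 (SE 0.05, adjusted p = 0.534), or 1.06-fold, and -0.03 with quantile normalization. Agps, which exchanges the acyl chain for a fatty alcohol, read 8.35, 8.24 and 8.36 in knockout arrays and 8.22, 8.14 and 8.25 in wild-type arrays. Knockout replicate 2 lay just under wild-type replicate 3, and the difference was 0.11 (SE 0.06, adjusted p = 0.465).

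The fatty alcohols come from acyl-CoA reductases. Far1, the more widely expressed of the pair, differed by -0.03 (SE 0.06). Far2 read 6.05, 5.75 and 5.93 in knockout arrays and 5.75, 5.75 and 5.57 in wild-type arrays, so that knockout replicate 2 was level with 2 wild-type arrays and the other 2 knockout arrays were higher. Knockout arrays averaged 5.91 ± 0.15 and wild-type arrays 5.69 ± 0.10 (SD, n = 3 each), a difference of 0.22 (SE 0.09, limma adjusted p = 0.370). The Far2 probe set is in decile 3 of signal, where the median of all genes was 0.07, and its value ran from 0.15 to 0.38 over the alternatives, with 0.38 when the fit held the Y-linked level.

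Agps lies near the targeted gene. In gene order it is 9 genes from Pjvk on chromosome 2. Of the 42 members 7 are on this chromosome, and Agps was the 1 that was higher, while Phyh, Acot8, Crat, Slc27a2, Pxmp4 and Acbd5 were lower at distances from 298 genes for Crat to 1022 for Acot8. Among measured genes within 10 of Pjvk, log2 fold changes ran from -0.95 for Ttn (limma adjusted p = 0.0021) to 0.44 for Ccdc141 (limma adjusted p = 0.177). Whether the position of Agps plays a part in its value was not tested. Agps was singled out after its value was seen.

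The 250 bases before the annotated starts of the ether lipid genes, and of Phyh and Acox2, are shown. The ether lipid genes were chosen because they lay on either side of 0, and Phyh because it was the lowest member. Acox2 was chosen because it carries a match to a relaxed form of the element of peroxisome proliferator-activated receptors, though not to the strict form. The sequences are from RefSeq on GRCm38.p6, 5′ to 3′ on the strand of the gene. The Acox2 window was picked because it held that match, while for the other genes the first listed window is shown. Capitals mark the GC box (GGGCGG), the motif CCAAT, the E-box (CACGTG) and a relaxed form of the receptor element known as DR1 (GGNCANAGGNCA) on either strand.
Far1 (chr7:113513584-113513833, + strand): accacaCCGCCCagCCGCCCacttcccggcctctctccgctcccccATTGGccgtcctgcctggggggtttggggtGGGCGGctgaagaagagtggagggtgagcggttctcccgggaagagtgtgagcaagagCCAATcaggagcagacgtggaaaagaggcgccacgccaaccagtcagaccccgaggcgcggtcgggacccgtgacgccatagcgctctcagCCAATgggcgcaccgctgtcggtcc
Far2 (chr6:148047166-148047415, + strand): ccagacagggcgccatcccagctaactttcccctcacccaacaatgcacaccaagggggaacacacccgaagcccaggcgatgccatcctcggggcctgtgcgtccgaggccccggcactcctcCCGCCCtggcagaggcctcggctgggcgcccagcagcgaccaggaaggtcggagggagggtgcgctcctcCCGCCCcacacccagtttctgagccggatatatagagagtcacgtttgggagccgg
Agps (chr2:75831927-75832176, + strand): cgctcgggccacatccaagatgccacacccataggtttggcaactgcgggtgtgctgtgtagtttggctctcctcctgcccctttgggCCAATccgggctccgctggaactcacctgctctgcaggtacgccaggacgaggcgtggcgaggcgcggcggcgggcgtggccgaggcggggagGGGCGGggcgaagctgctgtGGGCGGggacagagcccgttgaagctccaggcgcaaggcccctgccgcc
Gnpat (chr8:124862783-124863032, + strand): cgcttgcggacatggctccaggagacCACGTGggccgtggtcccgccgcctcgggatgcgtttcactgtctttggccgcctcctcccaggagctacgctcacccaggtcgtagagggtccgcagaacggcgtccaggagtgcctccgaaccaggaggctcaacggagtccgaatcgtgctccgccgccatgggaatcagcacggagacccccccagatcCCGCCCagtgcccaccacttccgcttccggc
Phyh (chr2:4918746-4918995, + strand): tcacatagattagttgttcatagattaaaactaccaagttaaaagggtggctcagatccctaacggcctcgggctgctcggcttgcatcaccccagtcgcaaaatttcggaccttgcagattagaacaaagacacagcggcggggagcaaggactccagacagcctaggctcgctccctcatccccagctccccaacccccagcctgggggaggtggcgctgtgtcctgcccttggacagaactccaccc
Acox2 (chr14:8259020-8259269, - strand): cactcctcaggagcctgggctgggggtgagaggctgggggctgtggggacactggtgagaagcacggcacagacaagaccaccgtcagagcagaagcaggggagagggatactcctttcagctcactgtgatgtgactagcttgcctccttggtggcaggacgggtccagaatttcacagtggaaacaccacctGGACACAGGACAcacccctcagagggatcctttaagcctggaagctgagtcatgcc

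The GC box was found 3 times for Far1, 2 times for Far2 and Agps each and 1 time for Gnpat. Whether it bears on their differences was not tested. The 1 CACGTG is in Gnpat, and none of the 4 motifs is in the Phyh window. Promoters were held for 33 of the 42 members. The GC box was in 69.7% of them, against 49.3% of 15614 genes searched in the same way, and CCAAT in 54.5%, against 38.8%. The median GC content was 59.0% over the windows of members and 56.8% over those of all genes, and the motif shares were not adjusted for it. CACGTG was in 15.2% of the members and 8.1% of the genes. The relaxed DR1 element was in Acox2 and Acot4, 6.1% of the members, against 0.8% of the genes, and these differed by 0.13 and -0.09. The strict form, AGGTCANAGGTCA, was in 0 members. Other motifs searched were AGGTCA (in 15.2% of members and 14.3% of genes), TATAAA (3.0% and 12.5%) and GCGCANGCGC, an NRF1 motif (6.1% and 6.4%). AGGTCA is part of the strict DR1 form. The motifs were chosen after the values were seen, and a match is a run of letters, not a measured binding site.

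Enzymes that handle acyl-CoA and coenzyme A were lower in 8 of 9 genes, with a median of -0.09. Over all genes 53.8% were lower, with 72.1% of those above the median signal and 35.5% of those below it. Nudt12, a hydrolase of NADH and related nucleotides, read 8.0, 8.08 and 8.15 in knockout arrays and 8.26, 8.20 and 8.17 in wild-type arrays. The groups did not overlap, by a gap that is small beside their spread, and the difference was -0.13 (SE 0.06, adjusted p = 0.412). Acot8, a broad acyl-CoA thioesterase, read 6.62, 6.82 and 6.83 in knockout arrays and 6.86, 6.86 and 6.84 in wild-type arrays. Here knockout replicate 1 stood lowest and the other 5 arrays lay close together. The difference was -0.10 (SE 0.07, adjusted p = 0.571), and without knockout replicate 1 it was -0.03.

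The rest of this branch differed by between -0.13 and 0.01. Nudt19 and Nudt7, which degrade coenzyme A, were at -0.10 (SE 0.06) and -0.05 (SE 0.06). Crat and Crot, which pass short and medium acyl groups to carnitine for export to mitochondria, were at -0.13 (SE 0.08) and 0.01 (SE 0.06). Acot4, a thioesterase with close paralogs in the mouse, whose cross-hybridisation was not assessed here, was at -0.09 (SE 0.11). Mlycd, which decarboxylates malonyl-CoA, was at -0.05 (SE 0.06). Slc27a2, a very long chain acyl-CoA synthetase, was at -0.02 (SE 0.09). The branch mean deviated by -0.07, 0.005 and -0.05 in knockout arrays and by 0.0004, 0.07 and 0.04 in wild-type arrays, and knockout replicate 2 lay just above wild-type replicate 1.

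The oxidases and redox enzymes showed no common direction, with 3 of 5 genes above 0, 2 below and a median of 0.05. Ddo, the oxidase of D-aspartate, read 6.07, 5.99 and 6.09 in knockout arrays and 6.05, 5.85 and 5.80 in wild-type arrays. Wild-type replicate 1 lay among the knockout values. The difference was 0.15 (SE 0.08, adjusted p = 0.442), and 0.32 when the fit held the Y-linked level. Dao, the oxidase of other D-amino acids, was at 0.13 (SE 0.11), and Idh1, a source of NADPH in cytosol and peroxisomes, at 0.05 (SE 0.06). Dao and Ddo are in deciles 2 and 3 of signal, where the medians of all genes were 0.05 and 0.07. Pipox, which oxidises pipecolic acid and sarcosine, and Ephx2, the soluble epoxide hydrolase, were at -0.06 (SE 0.08) and -0.05 (SE 0.07).

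Both proteases of the peroxisomal matrix were slightly lower, as were 72.1% of all genes above the median signal. Tysnd1, which trims imported enzymes, read 7.48, 7.63 and 7.52 in knockout arrays and 7.60, 7.67 and 7.59 in wild-type arrays, with knockout replicate 2 among the wild-type values. The difference was -0.08 (SE 0.06, adjusted p = 0.611). Lonp2, the peroxisomal Lon protease, was at -0.08 (SE 0.07).

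**Figure D3:**
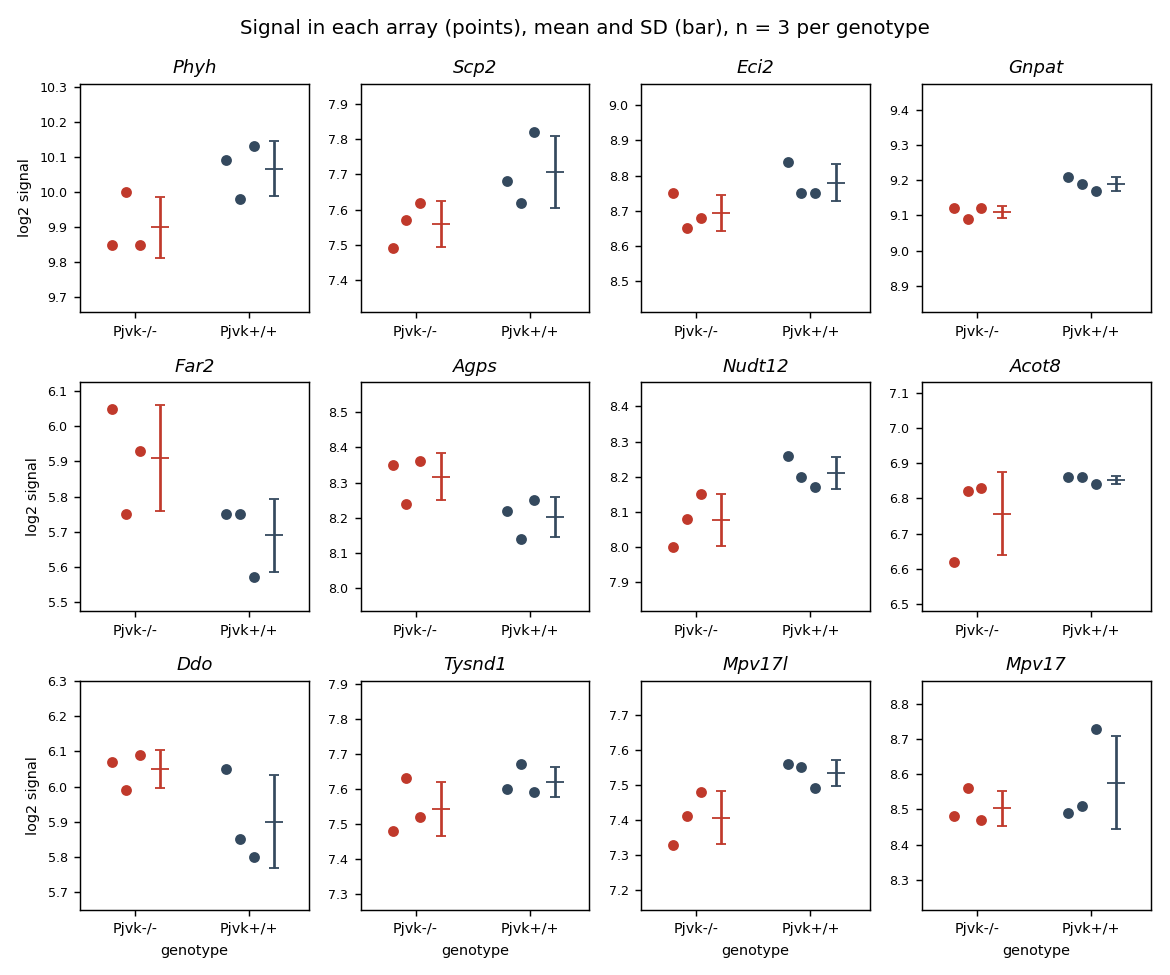
Log2 signal of 12 genes in each array (points) for Pjvk-/- at the left and Pjvk+/+ at the right of each panel, with the mean and SD beside them (n = 3 each); each panel spans the same range of log2 signal. In Gnpat, Nudt12, Acot8 and Mpv17l the genotypes do not overlap in the deposited values. Far2 and Agps lie higher and Phyh and Scp2 lower in Pjvk-/-, with arrays that touch or overlap.

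Membrane proteins were lower in 7 of 9 genes, with a median of -0.05. Over all genes 53.8% were lower, and 72.1% of those above the median signal. The transporters that pass very long chain and branched acyl-CoA into the organelle, Abcd2 and Abcd3, were at -0.05 (SE 0.07) and 0.01 (SE 0.06). Abcd4 was at -0.04 (SE 0.06). Slc25a17, a carrier of coenzyme A, FAD and NAD+, was at -0.01 (SE 0.06). Acbd5, an acyl-CoA binding protein that tethers peroxisomes to the endoplasmic reticulum, was at -0.05 (SE 0.06), with an interval from -0.18 to 0.09.

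The family of PXMP2 and MPV17, small proteins with several membrane spans, was split. Mpv17l read 7.33, 7.41 and 7.48 in knockout arrays and 7.56, 7.55 and 7.49 in wild-type arrays. The groups did not overlap, with knockout replicate 3 and wild-type replicate 3 nearly level, and the difference was -0.13 (SE 0.06, adjusted p = 0.420). Mpv17 read 8.48, 8.56 and 8.47 in knockout arrays and 8.49, 8.51 and 8.73 in wild-type arrays. The genotypes overlapped, and its difference of -0.07 (SE 0.08, adjusted p = 0.698) was 0.003 without wild-type replicate 3, the one high array, and -0.24 when the fit held the Y-linked level. Another 2 probe sets list Mpv17 with other genes and were not used. Pxmp2, a channel of the peroxisomal membrane, was at 0.09 (SE 0.09) and Pxmp4, another membrane protein, at -0.07 (SE 0.06).

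Over all 42 members the mean deviation from the gene mean was -0.018, -0.010 and -0.015 in knockout arrays and 0.008, 0.005 and 0.030 in wild-type arrays. Wild-type replicate 3 was the highest of the 6 arrays in 13 of 42 members, against 16.0% of all genes, and knockout replicate 1 the lowest in 10 members, against 15.2% of all genes. Without wild-type replicate 3 the median of the members was -0.03 and 26 of 42 were below 0.

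**Figure D4:**
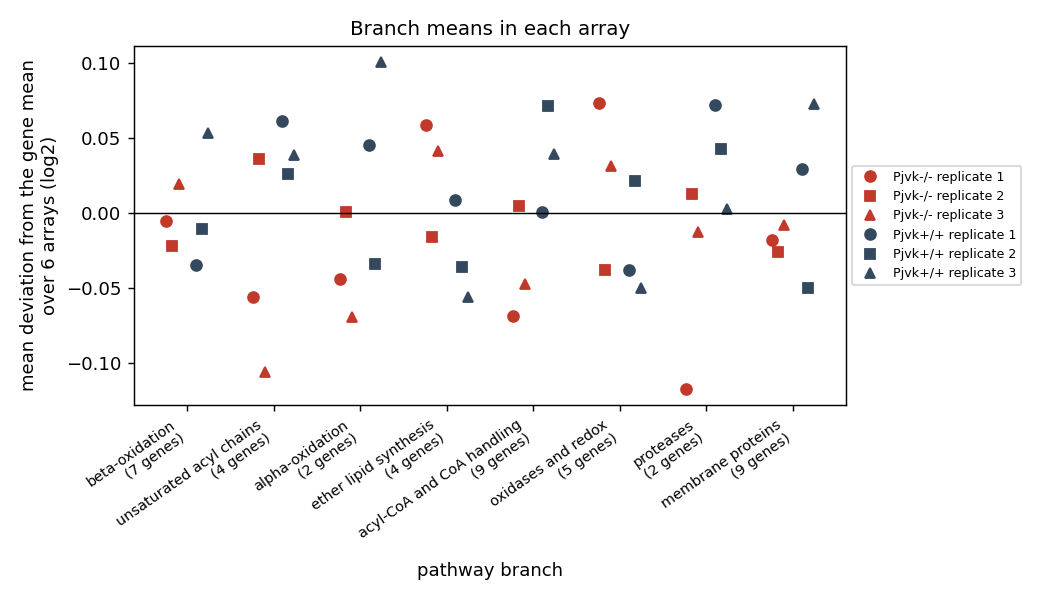
Mean of each pathway branch in each array, as the deviation of its genes from their mean over the 6 arrays (log2), with Pjvk-/- arrays in red to the left of Pjvk+/+ arrays in blue-grey. The lowest knockout value is that of the 2 proteases in replicate 1, at -0.12, and in the unsaturated acyl chain and the acyl-CoA branches knockout replicate 2 lies among the wild-type arrays.

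Other peroxisomal genes were taken from lists of related functions. Of 27 further peroxisomal enzymes and carriers measured, 16 were lower and 11 higher, with a median of -0.02, and 0 passed the test. Cat, the catalase that removes hydrogen peroxide, differed by -0.14 (SE 0.06, adjusted p = 0.403), Hsdl2, a dehydrogenase-like protein, by -0.12 (SE 0.05, adjusted p = 0.391) and Acsl6, an acyl-CoA synthetase, by -0.11 (SE 0.05, adjusted p = 0.426). Among 14 peroxins, the proteins that build peroxisomes, 13 were lower (92.9%) with a median of -0.05, and 0 passed. Of all genes 53.8% were lower, and 72.1% of those above the median signal. Pex11a was lowest at -0.27 (SE 0.07, limma adjusted p = 0.246), further from 0 than any of the 42 members. The knockout lay wholly below the wild-type for Pex11a, as for 3 of the 14 peroxins (21.4%) and 11.3% of all genes. Pex14 was at -0.14 and Pex13 at -0.13.

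Mitochondrial beta-oxidation, which takes over the shortened chains, had 16 of 18 genes lower (88.9%), a median of -0.04 and 0 calls. Over all genes 53.8% were lower, and 72.1% of those above the median signal. Slc25a20, the carnitine carrier, differed by -0.13 (SE 0.06), Hadhb, a subunit of the trifunctional protein, by -0.13 (SE 0.06) and Cpt1a, the carnitine palmitoyltransferase of the outer membrane, by -0.10 (SE 0.06). The 10 genes of later ether lipid steps had 7 lower and 3 higher, with a median of -0.04. Chpt1, a cholinephosphotransferase, was at -0.14 (SE 0.07), Tmem189, the plasmanylethanolamine desaturase that completes plasmalogens, at -0.10 (SE 0.07) and Cept1, a choline and ethanolamine phosphotransferase, at -0.07 (SE 0.05).

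The receptors that control peroxisomal genes in rodent liver and genes known to follow them had 8 of 15 lower and 7 higher, with a median of -0.01 and 0 calls. Pdk4 and Plin2 of that list differed by more than any of the 42 peroxisomal genes above. Pdk4, a kinase that limits glucose oxidation, differed by -0.49 (SE 0.13, adjusted p = 0.256), Plin2, a coat protein of lipid droplets, by -0.28 (SE 0.07, adjusted p = 0.241) and Ppargc1a, a coactivator of mitochondrial genes, by -0.14 (SE 0.06, adjusted p = 0.373). In these bulk samples fewer cells of a type and less RNA per cell cannot be told apart, here and for the peroxisomal genes.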

How the data were processed

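The authors deposited 1 table of log2 values for 35557 probe sets and 6 arrays, made with the Affymetrix Expression Console per the submitters' processing notes, which give no version. How probes were summarized and normalized, and the genome build, is not stated there. Probe sets were named through the dated platform annotation, and only the 21789 with 1 symbol were used, the brightest for each gene (19938 genes). Symbols were updated through gene identifiers on GRCm38.p6.

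The genotypes were compared by limma (version 3.58.1, under R 4.3.3; lmFit, eBayes, no covariate, 4 residual and 4.59 prior degrees of freedom), and p-values were adjusted by Benjamini-Hochberg over all genes. The step was run on simulated data whose added shifts were all larger than the difference of any member. That run does not show whether differences of the reported size could be called. Non-overlap counts ask whether all 3 knockout values lie on 1 side of all 3 wild-type values. With 3 arrays each, an exact two-sided permutation test cannot give a p under 0.1. The number of arrays limits the precision.

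All members could be named. Values in every array are given for Phyh, Far2 and Mpv17, for members whose groups do not overlap and for the smallest unadjusted p of each branch. The related lists name up to 3 genes each, and Cat and Pjvk. Members, lists and rules were chosen with earlier results of these data known. Alternatives left out each array, changed the normalization, the filter on dim genes, the use of probe sets and the prior, or added the replicate number or the Y-linked level to the fit. Promoter windows were searched in Python 3.11.15. Marker lists for melanocytes, neurons and glia, macrophages, bone and fibroblasts, erythroid cells and hepatocytes were measured too. Their median log2 fold changes were -0.05, -0.0033, 0, 0.11, -0.06 and 0.06, while those of hair cells and supporting cells were -0.03 and 0.01.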

Additional observations from a re-analysis of the deposited data

How the results depend on the processing

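No member was called under any of the 15 alternatives, in either direction, and the lowest adjusted p of a member was 0.194, for Phyh with an intensity trend and robust prior. The median log2 fold change of the members stayed below 0 in all of them, between -0.07 and -0.02. Quantile normalization gave -0.03 and cyclic loess -0.02, and they shifted the median of all genes to 0.0019 and 0.0013. Those 2 also moved the members below 0 to 25 of 42, beside 48.9% and 49.4% of all genes. Of 616 values of single members under an alternative, 573 kept their sign, 42 changed it and 1 was 0 (Far1 without knockout replicate 1), and 23 of 42 members never changed sign. In 39 of 42 members at least 1 alternative moved the value by over 1.5 times. The cause of such changes was not tested.

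The small counts moved. With 1 array left out, the members at an unadjusted p under 0.05 numbered 0 to 2 lower and 0 to 2 higher. Of all genes 4.57% to 6.55% were lower and 3.68% to 9.1% higher at that p. Members with groups that do not overlap numbered 4 to 12 lower and 0 to 5 higher, the most without knockout replicate 2. Groups of 2 against 3 separate more easily. The members wholly lower were 1, 1 and 2, and wholly higher 4, 3 and 3, with quantile normalization, cyclic loess and centring on array medians. Non-overlap was not counted over all genes under the alternatives. At an unadjusted p under 0.05, 0 members were lower with each of those 3 normalizations, beside 5.05%, 5.25% and 4.94% of all genes. With genes above the 25th percentile of signal 2 of 40 members were lower, beside 9.45% of those genes. With genes above the median 4 of 30 members were lower, beside 14.5%, and 0 higher, beside 2.5%. With the intensity trend 2 were lower, beside 8.79%, and with the Y-linked level in the fit 2 were higher, beside 2.42%. With the replicate number as a block 0 members were lower at that p, beside 5.84% of all genes, and 0 were called, with a median of -0.05. Same-numbered arrays deviated together with correlations of 0.076, 0.019 and -0.009, and arrays did not all correlate best with their own number.

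Signs changed for 19 members, whose differences reached 0.13 in size (Acox2). With 1 array left out, Abcd3 ran from -0.0367 to 0.0533, Abcd4 from -0.0617 to 0.0133, Acot4 from -0.218 to 0.0117, Amacr from -0.0833 to 0.0617, Crot from -0.0317 to 0.0333, Ehhadh from -0.0683 to 0.0517, Hacl1 from -0.0117 to 0.0483, Hsd17b4 from -0.0133 to 0.0267, Mpv17 from -0.117 to 0.0033, Pipox from -0.108 to 0.0117, Slc25a17 from -0.055 to 0.025 and Slc27a2 from -0.085 to 0.0567. With quantile normalization Abcd2 was at 0.0056, Acbd5 at 0.0033, Acox3 at 0.0089, Far1 at 0.015 and Slc25a17 at 0.0361. With cyclic loess Acbd5 was at 0.0048, Acox3 at 0.006, Decr2 at 4e-04, Far1 at 0.017 and Slc25a17 at 0.0398. Ehhadh was at 0.0017 with centring. With the Y-linked level in the fit, which is largely confounded with genotype because its values do not overlap between the genotypes, Abcd2 was at 0.0567, Abcd3 at -0.0371, Acox2 at -0.0606, Ehhadh at 0.0291, Far1 at 0.0142, Hacl1 at -0.0218, Pxmp2 at -0.137, Slc25a17 at 0.0601 and Slc27a2 at 0.0125. Signal over background is not given in the table, so it is unknown which dim members were detected.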
